A study of Mus musculus with 6 samples.

Results

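Eph receptors are receptor tyrosine kinases that bind ephrins on the surface of neighbouring cells, and 10 of them, Epha2, Epha3, Epha4, Epha5, Epha7, Epha8, Ephb1, Ephb2, Ephb3 and Ephb4, were followed here in sorted hindbrain cells of the mouse embryo at E10.5. They were taken by gene symbol: every probe set (a group of short probes for one transcript) that the platform's table gives to one of these symbols alone was used. This gave 22 of 45037 probe sets, which represent 9 of 18193 named genes, and no probe set was named for Ephb2, which is not analysed here. Each gene is described by its brightest probe set, judged on the mean of all 6 arrays, and the other probe sets are given beside it.

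The swap group (n = 3 arrays) carried a Hoxb1 locus that made another Hox protein in place of Hox-B1, followed by IRES-tauGFP. The control group (n = 3 arrays, labelled Hoxb1-IRES-tauGFP) made the normal Hox-B1 protein from the same tagged locus. In both groups the fluorescent reporter tauGFP therefore came from Hoxb1, cells with that locus active were sorted from the hindbrains of whole litters, and rhombomere 4 is the tissue named in the labels. The series design calls the replicates biological and independent, and a replicate pools the embryos of litters. The sort aimed at cells with Hoxb1 activity, and its purity is not known. Markers of other cell types were read in the sorted samples, such as the erythroid marker Hbb-y at a mean log2 intensity of 14.11.

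Eph receptors fall into an EphA class, which binds mostly the lipid-anchored ephrin-A ligands, and an EphB class, which binds mostly the membrane-spanning ephrin-B ligands, with EphA4 binding both. Contact between a receptor and an ephrin signals into both cells, often as repulsion. In the hindbrain this signalling keeps cells of neighbouring rhombomeres apart, and later it steers growing axons. Epha4 is known from rhombomeres 3 and 5, where the zinc-finger factor Egr2 activates it, and an enhancer of Epha2 active in rhombomere 4 is known to respond to Hoxb1.

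The promoters of 3 members are shown because Epha8 and Ephb4 were the receptors whose swap and control arrays did not overlap, and Epha4 is the receptor best known from the hindbrain segments next to rhombomere 4. Each is the 250 bases before an annotated transcript start, from RefSeq on build GRCm38.p6, written 5′ to 3′ on the gene's strand. Capitals mark GGGCGG, the core of the GC box, on either strand (CCGCCC where it lies on the other strand, with neighbouring copies running together).
Epha8 (chr4:136956817-136957066, minus strand): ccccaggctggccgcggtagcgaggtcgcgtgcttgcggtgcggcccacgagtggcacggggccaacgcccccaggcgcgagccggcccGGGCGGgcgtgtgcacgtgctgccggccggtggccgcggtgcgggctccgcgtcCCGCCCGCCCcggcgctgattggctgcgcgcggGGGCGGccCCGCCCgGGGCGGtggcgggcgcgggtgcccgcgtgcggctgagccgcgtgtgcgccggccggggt
Ephb4 (chr5:137349859-137350108, plus strand): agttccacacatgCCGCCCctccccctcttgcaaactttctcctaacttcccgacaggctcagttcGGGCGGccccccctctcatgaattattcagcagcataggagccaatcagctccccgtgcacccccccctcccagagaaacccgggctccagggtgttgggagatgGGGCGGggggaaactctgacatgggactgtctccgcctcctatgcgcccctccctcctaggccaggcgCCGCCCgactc
Epha4 (chr1:77515089-77515338, minus strand): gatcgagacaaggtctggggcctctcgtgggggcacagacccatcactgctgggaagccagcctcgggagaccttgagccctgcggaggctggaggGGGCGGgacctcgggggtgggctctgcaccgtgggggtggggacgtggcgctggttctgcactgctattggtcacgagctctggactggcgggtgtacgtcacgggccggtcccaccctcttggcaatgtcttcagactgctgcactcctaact
The Epha8 window had 6 copies of GGGCGG and a GC content of 84.0%, the Ephb4 window 4 copies and 64%, and the Epha4 window 1 copy and 66.0%. GGGCGG was found in 8 of the 11 windows of the 10 genes (Epha7 has a pair of overlapping windows) and in 32.7% of all 32851 windows of this length, whose median GC content was 52.4%. TGATNNAT, a form of the joint Hox and Pbx site searched on both strands, was in 0 of the 11 windows and in 7.68% of all windows. These matches describe letters in these windows, and enhancers elsewhere were not searched.

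No Eph receptor passed the test between the genotypes. For the brightest probe sets of Epha4, Epha7 and Ephb1 the 95% intervals lay within 2-fold in either direction. A larger difference than that lay outside these intervals. Of their further probe sets, all of Epha7 and some of Epha4 had intervals that reached past 2-fold, and Ephb1 had no other. Epha8 was lower and Ephb4 higher in all 3 swap arrays than in all 3 control arrays, both at low intensities and without passing limma's test. The remaining receptors, Epha2, Epha3, Epha5 and Ephb3, had intervals that spanned 0 and reached past 2-fold. In a bulk sample fewer cells of a type and less RNA per cell cannot be told apart, and this holds for every value below.

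In numbers, limma called 0 of the 9 genes and 0 of their 22 probe sets at an adjusted p under 0.05, against 0 of all 45037 probe sets (0%). An unadjusted p under 0.05 was reached by 2 of the 9 genes, against 3.63% of all named genes, and by 2 of the 22 probe sets, against 4.57% of all probe sets. Arrays of the genotypes did not overlap for 2 of 9 receptors, and for 8.85% of all named genes. Of the 9 differences 4 were above 0 and 5 below, with a median of -0.05 (swap minus control, log2 scale) beside 0.01 over all named genes. The 95% interval lay within 2-fold for 3 of 9 receptors and for 43.4% of named genes. At or above the median level of all probe sets, a log2 intensity of 6.83, stood 6 of 9 receptors and 61.4% of named genes.

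**Figure D1:**
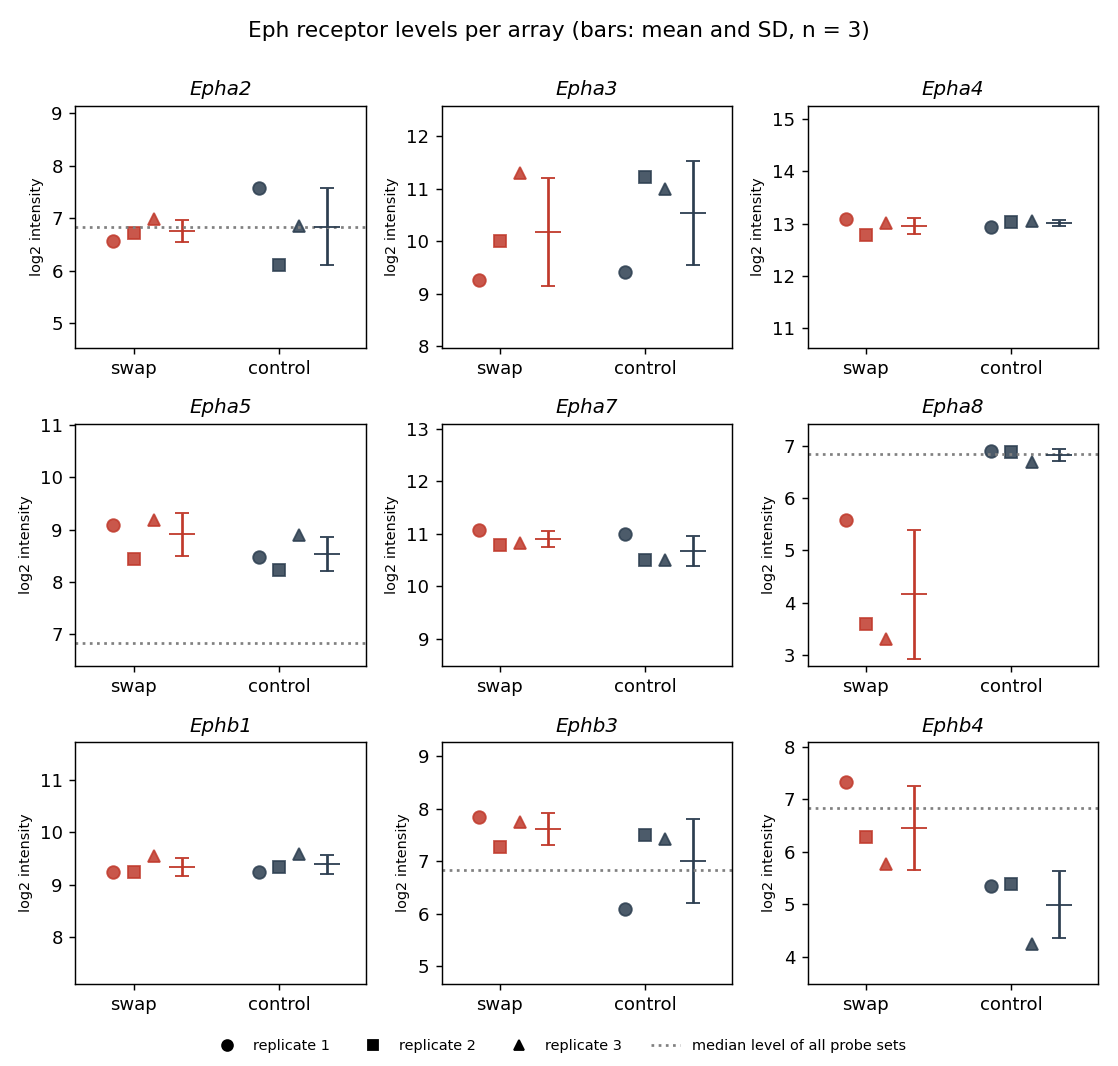
Log2 intensity (vertical axis) of each Eph receptor in the 3 swap and the 3 control arrays, with symbols for the replicate number, bars for the mean and SD, and a dotted line at the median level of all probe sets (6.83) where it falls in the panel. Every panel spans the same number of log2 units, so the tight clusters of Epha4 and Ephb1 can be set beside the wide ones of Epha3, and the groups separate for Epha8 and Ephb4.

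Facial motor neuron markers were measured in both genotypes. Of 6 such markers 5 had a named probe set, and all 5 stood at or above the median level. Their summed intensities were 39228 to 50107 in swap arrays and 36478 to 40573 in control arrays. The median level was also reached by 61.4% of all named genes. Among other markers measured, 5 of 5 neural crest and glial and 8 of 10 branchial mesenchyme markers reached it. For endothelium, macrophage and erythroid markers it was 0 of 8, 3 of 8 and 3 of 6. Reaching this level therefore does not single out the labelled tissue. Hoxb1, the altered locus, was measured by 1 probe set of unknown position in the transcript, at 12.54, 12.06 and 11.78 in swap arrays 1, 2 and 3 and at 12.67, 12.68 and 12.55 in control arrays 1, 2 and 3. Array medians lay between 118 and 139 intensity units. Neural crest and glial markers ranged from 11744 to 13170 in swap arrays and from 12331 to 13238 in control arrays (5 of 7 measured).

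Epha4, the receptor known from rhombomeres 3 and 5 and from motor axons, had log2 intensities of 13.09, 12.79 and 13.00 in swap arrays 1, 2 and 3 and of 12.94, 13.04 and 13.05 in control arrays 1, 2 and 3. The groups overlapped, and all 6 arrays lay within a narrow band (intensities of 7069 to 8697 over the swap arrays and 7857 to 8480 over the control arrays). The difference was -0.05, with a 95% interval of -0.57 to 0.47 (SE 0.21; adjusted p = 1.00 by limma). Of the probe sets not below the median level, 93.0% had a larger SD within genotypes than Epha4. Its 4 other probe sets had differences between -0.66 and 0.31, and the probe set at -0.66 stood at 4.26, 6.10 and 7.61 in the swap arrays against 6.10, 6.95 and 6.90 in the control arrays.

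Epha2, the receptor with a rhombomere 4 enhancer that responds to Hoxb1, stood at 6.56, 6.73 and 6.99 in swap arrays 1, 2 and 3 and at 7.57, 6.10 and 6.85 in control arrays 1, 2 and 3. The swap arrays lay inside the range of the control arrays, and both groups sat close to the median level of all probe sets. The mean was 6.76 ± 0.21 in swap arrays and 6.84 ± 0.73 in control arrays (SD, n = 3 each). Epha2 differed by -0.08, with a 95% interval of -1.11 to 0.95 (SE 0.42; adjusted p = 1.00 by limma). Without control array 1 the sign turned, to 0.28.

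Epha7, a receptor of axon guidance and of neural tube closure, had log2 intensities of 11.07, 10.79 and 10.83 in swap arrays 1, 2 and 3 and of 11.002, 10.501 and 10.505 in control arrays 1, 2 and 3. Control array 1 lay among the swap arrays and the other two control arrays below them. The difference was 0.23, with a 95% interval of -0.39 to 0.84 (SE 0.25; adjusted p = 1.00 by limma). It was 0.39 without control array 1 and 0.14 without swap array 1, control array 2 or control array 3. All 4 probe sets of Epha7 had differences above 0, from 0.05 to 0.27, and none of the 4 passed the test. They read transcripts of 1 gene on the same arrays and are not separate evidence.

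Epha5, a receptor of forebrain and retinal axon mapping, had 9.09, 8.44 and 9.18 in swap arrays 1, 2 and 3 and 8.48, 8.23 and 8.89 in control arrays 1, 2 and 3. Swap arrays 1 and 3 were above every control array, and swap array 2 was below control arrays 1 and 3. The difference was 0.37, with a 95% interval of -0.41 to 1.16 (SE 0.32; adjusted p = 1.00 by limma). It was 0.60 without swap array 2, 0.24 without swap array 3 and 0.22 without control array 2. Its 3 other probe sets gave -0.01, -0.12 and 0.14.

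Epha3, a receptor of motor axons and of mesenchyme, varied more within a genotype than between them. Its log2 intensity was 9.26, 9.997 and 11.29 in swap arrays 1, 2 and 3 and 9.41, 11.22 and 10.996 in control arrays 1, 2 and 3. Replicate 1 was the lowest array of each genotype, and only 1.58% of probe sets not below the median level had a larger SD within genotypes. The difference was -0.36, with a 95% interval of -2.12 to 1.41 (SE 0.71; adjusted p = 1.00 by limma), and it was 0.10 without swap array 1, -0.91 without swap array 3, -0.93 without control array 1, -0.02 without control array 2 and -0.13 without control array 3. The next brightest Epha3 probe set also had its lowest array of each genotype in replicate 1 (9.53 among 9.53, 9.66 and 10.18 in swap arrays, 9.23 among 9.23, 10.38 and 10.12 in control arrays), and so did the dimmest of the 4. The remaining one ran the other way, at 6.83, 6.93 and 5.17 in swap arrays and 6.55, 6.38 and 5.42 in control arrays.

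Marker sums of 3 other cell types shared the low replicate 1 of Epha3. The summed intensity of branchial mesenchyme markers, a tissue outside the hindbrain, was 3415, 6401 and 4990 in swap arrays 1, 2 and 3 and 2992, 9154 and 6511 in control arrays 1, 2 and 3. Macrophage markers summed to 2374, 4603 and 4064 in swap arrays and 598, 16720 and 1438 in control arrays, and erythroid markers to 15400, 27687 and 31176 in swap arrays and 20624, 33142 and 30771 in control arrays. Replicate 1 was thus the lowest array of each genotype in all 3 sums. The endothelium sum and the neural crest and glial sum did not have this order. For the facial motor neuron sum replicate 1 was the highest array of each genotype. That sum was 50107, 40728 and 39228 in swap arrays 1, 2 and 3 and 40573, 36478 and 40160 in control arrays 1, 2 and 3. Gene by gene, replicate 1 was lowest in both genotypes for 6 of 10 mesenchyme, 3 of 8 macrophage and 5 of 6 erythroid markers. It was so for 0 of 5 facial motor neuron, 1 of 8 endothelium and 0 of 5 neural crest and glial markers. The share of all named genes with this order was not counted. Of the mesenchyme markers 8 stood at or above the median level, and limma called 0. Prrx1, a mesenchymal homeodomain factor picked with its values known, stood at 8.48, 10.23 and 9.83 in swap arrays and 8.16, 10.82 and 10.40 in control arrays. Hand2, a factor of branchial arch mesenchyme with the smallest p of the list, ran otherwise, at 6.06, 6.46 and 5.48 in swap arrays and 7.39, 7.29 and 7.24 in control arrays, a difference of -1.30 (SE 0.31; adjusted p = 0.818 by limma). The part of such cells in the Epha3 level was not tested.

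**Figure D2:**
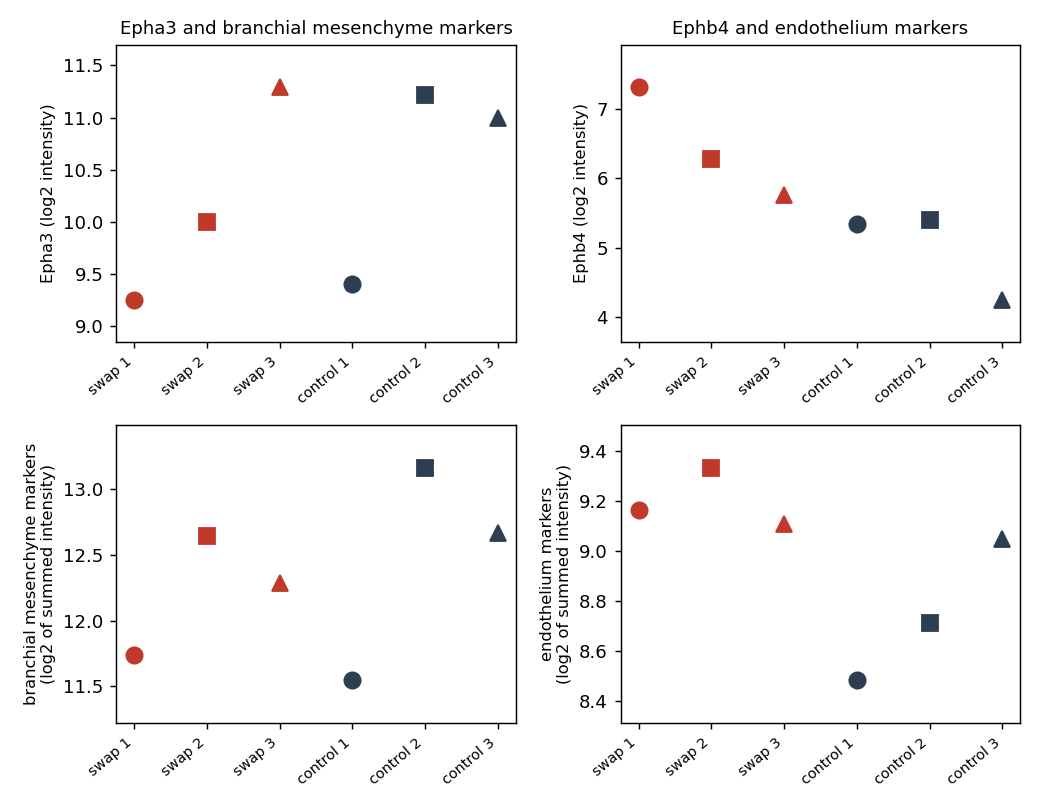
Epha3 and Ephb4 (upper panels, log2 intensity) above the summed level of branchial mesenchyme and of endothelium markers (lower panels, log2 of summed intensity) in each array, swap arrays in red and control arrays in dark blue. Replicate 1 is the lowest array of its genotype for Epha3 (9.26 in swap, 9.41 in control) and for the mesenchyme markers, and both Ephb4 and the endothelium sum are higher in every swap array than in every control array.

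Epha8, a receptor known in mouse from the developing superior colliculus, was the member with the largest difference. Its only probe set had log2 intensities of 5.57, 3.59 and 3.31 in swap arrays 1, 2 and 3 and of 6.90, 6.88 and 6.69 in control arrays 1, 2 and 3. In linear units these were 47.6, 12.1 and 9.92 in the swap arrays and 119, 118 and 103 in the control arrays. The groups did not overlap, the control arrays lay together near the median level of all probe sets (an intensity of 114), and the swap arrays lay below it and farther apart from each other. Means were 4.16 ± 1.23 in swap arrays and 6.82 ± 0.11 in control arrays (SD, n = 3 each).

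The Epha8 difference was -2.66 (SE 0.63, 95% interval -4.21 to -1.11), lower in 3 of 3 swap arrays, with an unadjusted p of 0.00590 and an adjusted p of 0.815 in limma. The two-sided exact permutation p was 0.1, the smallest that 3 against 3 arrays can give. Among the 12863 probe sets whose mean lay within 1 log2 unit of Epha8's, 0.498% had a difference of at least this size in either direction. With 64 added to each intensity before log2, which damps low values, the difference was -1.05 (limma's adjusted p = 0.848). The table has no detection calls, so whether the swap arrays held any Epha8 signal above background is not known, and Epha8 has no second probe set.

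**Figure D3:**
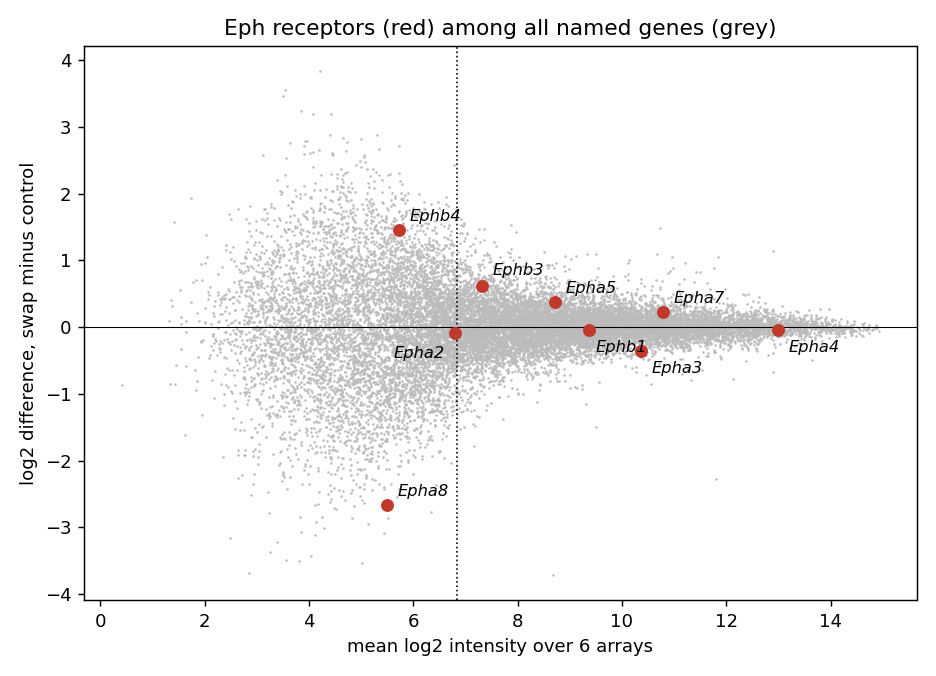
Difference (swap minus control, log2 scale) against mean log2 intensity over the 6 arrays for all 18193 named genes (grey) and the 9 Eph receptors (red), with a dotted line at the median level of all probe sets. Spread widens to the left of the line, where Epha8 (-2.66), Ephb4 (1.46) and Epha2 (-0.08) lie, and Epha4 (-0.05) lies in the narrow right-hand part.

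Among the EphB receptors, Ephb1, a receptor known from axons that turn at the ventral midline of the brain, did not separate the genotypes. It stood at 9.23, 9.24 and 9.54 in swap arrays 1, 2 and 3 and at 9.23, 9.34 and 9.59 in control arrays 1, 2 and 3. Array by array the groups covered nearly the same range. The difference was -0.05, with a 95% interval of -0.62 to 0.52 (SE 0.23; adjusted p = 1.00 by limma).

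Ephb3, known from rhombomeres 3 and 5 and from commissural axons, had 7.84, 7.27 and 7.74 in swap arrays 1, 2 and 3 and 6.09, 7.51 and 7.42 in control arrays 1, 2 and 3. Control array 1 was the lowest of the 6, and control arrays 2 and 3 lay among the swap arrays. The difference was 0.61, with a 95% interval of -0.51 to 1.73 (SE 0.45; adjusted p = 1.00 by limma), and it was 0.15 without control array 1.

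Ephb4, the receptor of venous endothelium that binds ephrin-B2, had log2 intensities of 7.32, 6.27 and 5.76 in swap arrays 1, 2 and 3 and of 5.34, 5.39 and 4.25 in control arrays 1, 2 and 3. All swap arrays lay above all control arrays, and of the 6 arrays swap array 1 alone stood above the median level of all probe sets. The linear intensities were 160, 77.4 and 54.3 in the swap arrays and 40.5, 42.0 and 19.0 in the control arrays. The difference was 1.46 (SE 0.53, 95% interval 0.15 to 2.77), with an unadjusted p of 0.0344 and an adjusted p of 1.00 in limma and a two-sided exact permutation p of 0.1. Of the 13291 probe sets within 1 log2 unit of its mean, 10.4% had a difference of at least this size in either direction. It was 1.03 without swap array 1, 1.09 without control array 3, and 0.68 with 64 added to each intensity.

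The summed endothelium markers, like Ephb4, were higher in every swap array than in every control array, but their order within a genotype differed. All 8 had a named probe set and 0 of the 8 stood at or above the median level. Their summed intensity was 573, 644 and 552 in swap arrays 1, 2 and 3 and 358, 419 and 529 in control arrays 1, 2 and 3. The genotypes did not overlap, with 552 as the lowest swap sum and 529 as the highest control sum. Among control arrays, array 3 had the highest sum and the lowest Ephb4 (4.25). Among swap arrays, array 2 had the highest sum and array 1 the highest Ephb4 (7.32). Of the 8 markers 7 had differences above 0, 0 passed limma's test, and 1, the tight junction protein gene Cldn5 with the smallest p of the list, had swap arrays (6.91, 6.88 and 6.60) all above control arrays (4.999, 6.07 and 6.58). Arrays of the genotypes did not overlap for 8.85% of all named genes. The part of endothelial cells in the Ephb4 level was not tested.

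**Figure D4:**
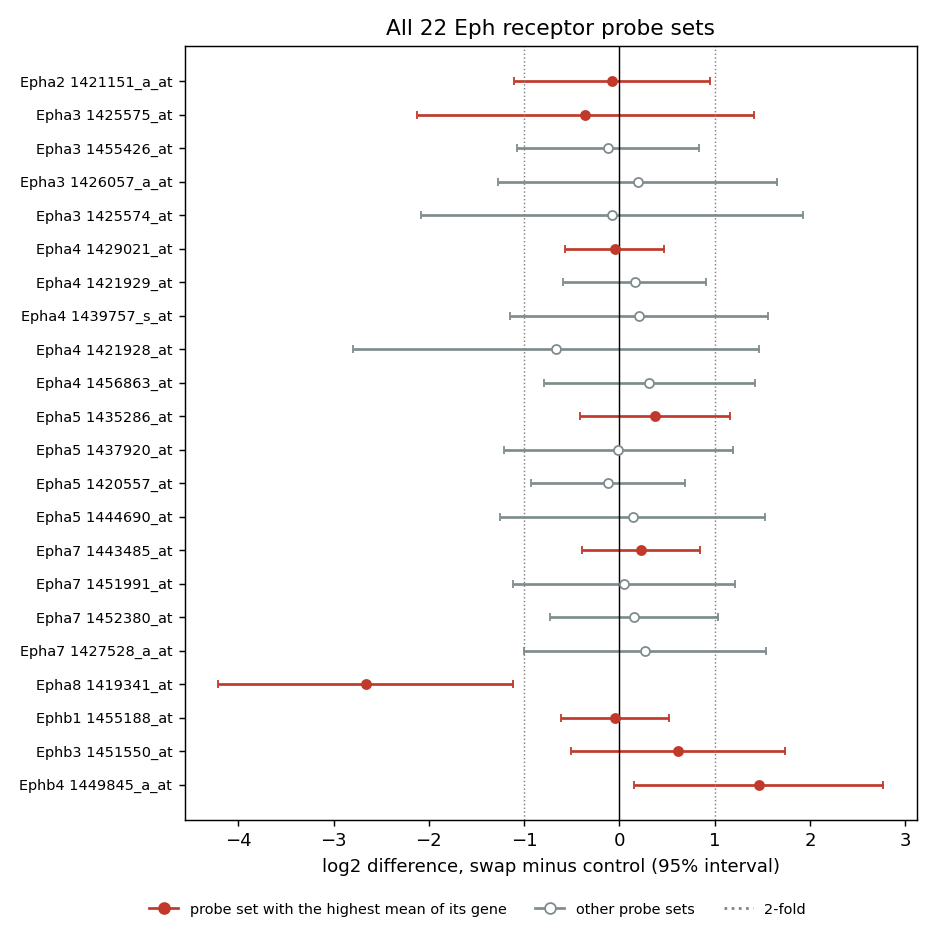
Difference between swap and control arrays (horizontal axis, log2 scale, with 95% intervals from limma) for all 22 Eph receptor probe sets, filled red where the probe set stands for its gene and open grey otherwise, with dotted lines at 2-fold. Apart from Epha8 (-4.21 to -1.11) and Ephb4 (0.15 to 2.77), every interval spans 0.

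The receptors with several probe sets show how far readings of a single gene can part. Epha3, Epha4, Epha5 and Epha7 had 4 or 5 probe sets each, and the other 5 receptors had 1. Of the 13 further probe sets 8 had differences above 0 and 5 below, from -0.66 to 0.31. Genotypes did not overlap for 0 of the 13, beside 3978 of all 45037 probe sets. Their 95% interval lay within 2-fold for 2 of 13, beside 14701 of all 45037. For Epha3, Epha4 and Epha5 the sign differed between probe sets of the gene, and for Epha7 it did not.

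At the gene level, arrays of the genotypes did not overlap for 0 of 8 ephrins, the ligands of these receptors, beside 8.85% of all named genes. Of 8 ephrin genes, all measured, 4 had differences above 0 and 4 below, with a median of -0.03. limma called 0, and 0 reached an unadjusted p under 0.05, beside 3.63% of all named genes. The ephrin-B ligands known from even-numbered rhombomeres had differences of -0.26 (Efnb1, SE 0.54), 0.05 (Efnb2, SE 0.24) and 0.05 (Efnb3, SE 0.28). Efnb2, the partner of Ephb4, stood at 10.46, 10.58 and 10.73 in swap arrays and at 10.85, 10.33 and 10.43 in control arrays, which overlap. Another Efnb2 probe set did not overlap, at 6.43, 6.31 and 6.90 in swap arrays and 7.53, 6.93 and 7.13 in control arrays, a difference of -0.65 (SE 0.29; adjusted p = 1.00 by limma). Among the ephrin-A ligands, the difference was 0.06 for Efna2 (SE 0.20), -0.21 for Efna5 (SE 0.26), -0.11 for Efna4 (SE 0.25) and -0.35 for Efna1 (SE 0.56). Efna3 had the widest reading, 1.38 (SE 0.98), with control array 1 at 3.79 and the other 5 arrays between 6.64 and 7.61. Its other probe set, of similar mean level (6.49 against 6.71), had the opposite sign, at -0.87 (SE 0.64).

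Genes that carry the signal inside the cell were measured for 25 of 26 listed. Of these 15 had differences above 0 and 10 below, with a median of 0.03. The 95% interval lay within 2-fold for 19, beside 43.4% of all named genes. Genotypes did not overlap for 2 of the 25, Src and Nck2 (-0.19, SE 0.20), beside 8.85% of all named genes. limma called 0, and 1 had an unadjusted p under 0.05, beside 3.63% of all named genes. That gene was Src, a tyrosine kinase recruited by Eph receptors, with 7.54, 6.27 and 5.96 in swap arrays 1, 2 and 3 and 8.06, 7.66 and 8.09 in control arrays 1, 2 and 3. Its swap arrays all lay below its control arrays, the difference was -1.34 (SE 0.46, limma's adjusted p = 1.00), and its second probe set gave 0.71 at a low intensity. The next smallest p belonged to Ngef, which encodes the EphA4-binding protein ephexin, at 0.91 (SE 0.50), and Nck1, an adaptor of EphB receptors, at -0.37 (SE 0.25). Adam10, the protease that cleaves ephrins on contact, had a difference of 0.03 (SE 0.21), and it was picked with its value known.

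Of 6 rhombomere regulators 4 were measured and 0 passed. Egr2, the activator of Epha4 in rhombomeres 3 and 5, stood at 10.08, 9.62 and 9.54 in swap arrays and at 9.37, 9.76 and 9.40 in control arrays, a difference of 0.24 (SE 0.26). Hoxb1 had a difference of -0.51 (SE 0.27) and Meis1, a cofactor of Hox proteins, 0.40 (SE 0.23), each with limma's adjusted p = 1.00 and without overlap between the genotypes. In both, as in Epha8 and Ephb4, non-overlap is read against the 8.85% of named genes that show it. The other Meis1 probe sets, of similar mean level, overlapped between the genotypes, at 0.21 (SE 0.34) and -0.06 (SE 0.24).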

How the data were processed

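Amplified, biotin-labelled RNA was read on Affymetrix mouse arrays, per the labels. The authors deposited linear intensities, a single value for each probe set on each array. The submitters' processing notes name the affy package, with no version or settings. Every array of the deposited intensities had the same trimmed mean (500), and all values were above 0, so log2 was taken with no offset. Of 45101 probe sets 64 array controls were left out, and genes were named only from probe sets with 1 symbol.

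Differences are swap minus control, from lmFit and eBayes of limma 3.58.1 (R 4.3.3) over all 45037 probe sets. Two-sided p were adjusted over those by the Benjamini-Hochberg method, with a threshold of 0.05. The fit was also run on simulated data with independent noise. The share recovered is not given here, so that run says nothing about the power of these 6 arrays. For a single value an exact permutation test was used. Probe sets differ in brightness per molecule, so levels of different genes were not ranked as amounts, and 6 arrays limit the precision of every value. The median SE of a difference was 0.282 for probe sets not below the median level and 0.731 for the others. No array was a duplicate.

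All members and ligands are named, and of the other pathway lists those past the threshold or else the 3 with the smallest unadjusted p. Cell type markers were summed, and those named beside the sums, like other exceptions, were picked with their values known. The members, gene lists and alternatives were chosen with earlier results of these data known. The name of the protein made in the swap group is not reported here. Alternatives were a block for the replicate number, a filter on level, quantile and median normalization, an offset of 64, a different prior, weights for arrays, the mean or the most variable probe set of a gene, a threshold of 0.1, and arrays left out. Neither scanner files nor hybridization dates were used, so no batch could be tested.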

Additional observations from a re-analysis of the deposited data

How the results depend on the processing

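The count of probe sets and of Eph receptors called was 0 in limma under all 17 alternatives, with a smallest adjusted p of 0.241 among all probe sets. Over the fits of all 45037 probe sets 1624 to 2375 had an unadjusted p under 0.05. With the replicate number as a block 0 probe sets and 0 receptors were called, and 2323 probe sets had an unadjusted p under 0.05. Arrays of the same number correlated at 0.23, 0.03 and 0.22 in their deviations from the group means, and arrays of different numbers at -0.29 to 0.12. Array medians 1, 2 and 3 were 118, 122 and 139 in swap and 118, 130 and 139 in control. The replicates are called independent and not every array correlated best with its own number, so the numbers were not taken as a pairing. A source shared by arrays of the same number was not tested. The filter at the median level removed Epha2, Epha8 and Ephb4, which have no value there. Of 150 values of the 9 receptors 142 kept their direction, 8 turned and 0 became called. Epha2 turned to 0.035 with array weights, 0.02 without swap array 1, 0.28 without control array 1 and 0.38 without both replicate 1 arrays. Epha3 turned to 0.10 and Ephb1 to 0.0013 without swap array 1, Epha4 to 0.036 without swap array 2, and Ephb1 to 0.052 without control array 3. These differences had not passed the test, and the cause was not tested. With 1 array left out Epha2 ranged from -0.45 to 0.28, Epha3 from -0.93 to 0.10, Epha4 from -0.11 to 0.036 and Ephb1 from -0.15 to 0.052. Likewise Epha8 ranged from -3.37 to -2.24 (lowest adjusted p 0.414 in limma) and Ephb4 from 1.03 to 1.80. Since the arrays of both genes do not overlap, leaving out 1 array could not turn them. The median of the receptors ranged from -0.07 to 0.15. Below the median level the intensities limit what these arrays can show.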

Other observations

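Another 4 Eph receptors, outside the 10 described, had a named probe set, and limma called 0 of them. Epha10, a receptor whose kinase domain lacks activity, stood at 8.32, 7.93 and 8.32 in swap arrays 1, 2 and 3 and at 7.39, 7.61 and 7.66 in control arrays 1, 2 and 3. All its swap arrays lay above its control arrays, with a difference of 0.63 (SE 0.23, 95% interval 0.06 to 1.21, limma's adjusted p = 1.00). Epha1 (-1.25, SE 0.86), Ephb6 (-0.55, SE 0.68), whose kinase is also inactive, and Epha6 (0.08, SE 1.14) all lay below the median level and their genotypes overlapped.

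Among the protein-coding genes of the RefSeq gene table, only the complement genes C1qb, C1qc and C1qa lie between Ephb2 and Epha8. These complement genes are expressed by macrophages. C1qb stood at 10.26, 11.55 and 11.28 in swap arrays and at 8.08, 13.41 and 9.79 in control arrays. Epha8 stood at 5.57, 3.59 and 3.31 in the swap arrays and between 6.69 and 6.90 in the control arrays. C1qb thus ranged most widely over the control arrays and Epha8 over the swap arrays, and a relation between them was not tested.

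The genes at or above the median level whose values followed Epha8 most closely over the 6 arrays were Cc2d2a (Pearson r 0.989), Ppt1 (0.974) and Src (0.973), out of 11168 searched. For Epha4 they were Madd (0.991), Ccdc3 (0.990) and Pla2g4e (0.986). These are descriptions over 6 arrays, with all genes read from the same arrays, of the highest values in a long search.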
